A study of Mus musculus with 6 samples.

Results

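The genes described here are 50 genes of mitosis and the spindle, taken by gene symbol from a table of 24054 genes: mitotic kinases, cyclins, spindle checkpoint proteins, kinetochore proteins, kinesins, condensin subunits and cytokinesis factors. All 50 were in the table and all 50 passed the filter on low counts that left 10975 genes for testing. They were measured by total RNA sequencing in TIBx, a mouse line with 3 libraries from parental cells (WT) and 3 from cells of genotype DNAJ-PKAc. The cell type is labelled liver BNL 1ME A.7R.1, a chemically transformed line derived from mouse embryonic liver. DNAJ-PKAc joins the start of the cochaperone DNAJB1 to the catalytic subunit of PKA (cAMP-dependent protein kinase), and is known as the driver fusion of fibrolamellar carcinoma. Both groups were kept in the same DMEM-based medium with serum and added glutamine, and no drug treatment or time point is labelled. The labels name a single line of each genotype and give neither the number of clones, how the fusion was introduced, nor whether the letters A, B and C mark separate cultures. The effect of the fusion and any other difference between the lines therefore cannot be told apart, and p-values measure only how far these libraries spread, possibly for technical reasons.

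Cells enter mitosis when cyclin B binds CDK1 and its inhibitory phosphates are removed by CDC25 phosphatases, after which Polo-like and Aurora kinases build the spindle and condensin compacts the chromosomes. The spindle checkpoint holds the anaphase-promoting complex inactive until kinetochores are attached, and degradation of cyclin B and securin then starts anaphase and cytokinesis. Most of these genes are transcribed in G2 and M phase, under FOXM1 and the MuvB complex, which binds the CHR promoter element, and their mRNA is low in resting cells. In RNA from bulk cultures, fewer cells in G2 and M phase and less of these mRNAs per cell cannot be told apart.

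Library totals ranged from 8095549 to 9969590 expected counts. Prkaca, the gene of the kinase part of the fusion, read 63.6, 87.6 and 79.2 CPM (each count relative to its TMM-scaled library total) across WT libraries against 131, 120 and 95.7 across DNAJ-PKAc libraries, so every DNAJ-PKAc library lay above every WT library, with a log2 difference of 0.59 that did not pass the test (edgeR adjusted p = 0.154). Values across libraries are given in the order A, B, C throughout. A gene count does not show the fusion junction. WT B stood apart from the other libraries in the ribosomal precursor Rn45s, which took 2.66% of its counts against 0.912% to 1.05% elsewhere. The nuclear RNA Malat1 read 2033, 10856 and 2505 CPM across WT libraries against 1051, 1151 and 4796 across DNAJ-PKAc libraries, so WT B and DNAJ-PKAc C were each the highest of their group. The part of this difference in the members' values was not tested. The hepatocyte markers were absent in a line labelled liver: 7 of 8, Alb, Apoa1, Ttr, Hnf4a, Tat, Cyp2e1 and Serpina1a, had 0 counts in every library, and the summed level of all 8 was at most 0.113 CPM. Of 10 leukocyte markers, 6 were at 0 in every library, Ptprc among them, and the summed level was 1.57 to 3.16 CPM in WT and 1.65 to 5.19 CPM in DNAJ-PKAc. Of 6 endothelial markers, Kdr and Emcn were at 0 and the sums were 0.790 to 2.39 CPM in WT and 0.301 to 1.06 CPM in DNAJ-PKAc.

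The mitosis and spindle genes divided the DNAJ-PKAc libraries. In DNAJ-PKAc A and B all 50 lay above every WT library, and in DNAJ-PKAc C 48 of 50 lay below every WT library. Of all genes tested, 32.46% lay above every WT library in both A and B, and 29.47% lay below every WT library in C. Summed, they took 0.185%, 0.170% and 0.197% of the counts of the WT libraries, 0.612% and 0.635% in DNAJ-PKAc A and B, and 0.0893% in DNAJ-PKAc C. Relative to the WT mean, the median member was 1.80 and 1.85 higher on the log2 CPM scale in A and B, and in C it was at -1.12, with a range over the members from -2.01 to 0.27. The 3 WT libraries had medians of -0.00, -0.15 and 0.09 on the same scale. A and B agreed closely with each other, the ratio of B to A running from 0.884 for Cdca8 to 1.25 for Cenpa with a median of 1.04. The pattern of A and B above and C below all WT libraries was held by 48 of 50 members and by 7.88% of all genes tested, and the members were 5.55% of the genes that held it. The pattern across the 6 libraries is a description and was given no test.

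**Figure D1:**
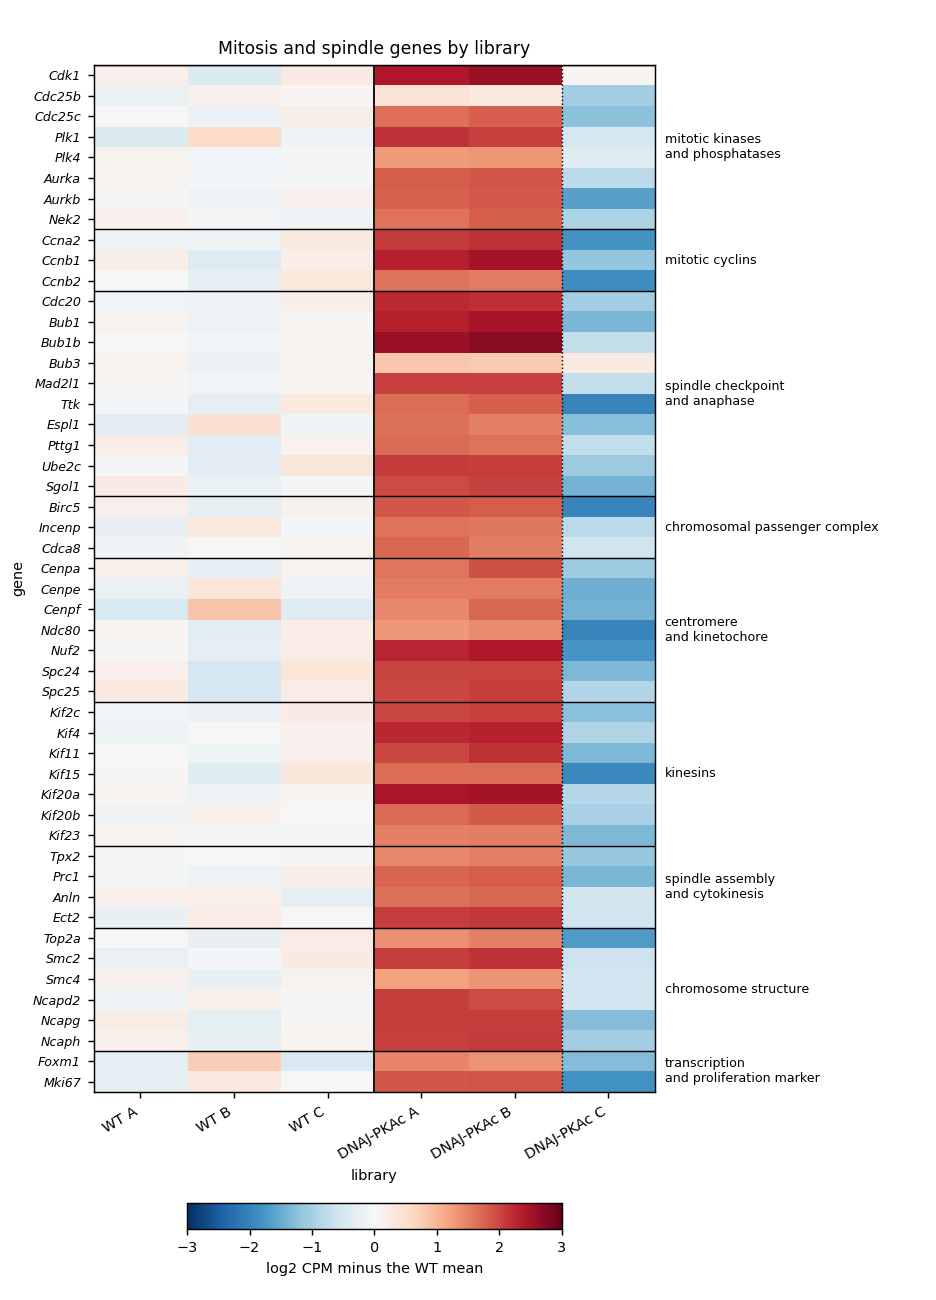
Each row is a gene, grouped by role, and each column a library; colour gives log2 CPM minus that gene's WT mean. A and B are above 0 for all 50 genes, while in C 48 genes are below 0 and only Cdk1 and Bub3 are not.

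Since the members shared 1 pattern over the libraries, the letters of their promoters were compared. RefSeq promoter windows of the build GRCm38.p6, running from 250 bases before to 50 bases after a gene's start, were found for 41 of the 50 members (44 windows, since some genes have more than 1 start). The letters searched on both strands were TTTGAA or TTCGAA for the CHR element, CCAAT for the CCAAT box, and TTTNNCGC for E2F. TTCGAA reads the same on both strands. Windows were counted, so overlapping matches count once. CHR letters stood in 35 of 44 member windows (79.5%) against 19.2% of all 32851 windows, CCAAT in 33 (75.0%) against 37.4%, and both together in 30 (68.2%) against 7.52%. E2F letters stood in 7 (15.9%) against 5.17%. A match of these letters is a description of the window, not a site shown to be bound.

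The 6 windows printed here belong to members whose values are given in full, 1 for each of 6 roles, with CHR and CCAAT letters of either strand in capitals. They were picked among windows that hold CHR or CCAAT letters, so they do not show how common these letters are. Each is written 5′ to 3′ along the gene's own strand. Cdk1 spans chr10:69352863-69353162 on the minus strand, Ncapd2 chr6:125191537-125191836 on the minus strand, Ect2 chr3:27153829-27154128 on the minus strand, Kif4 chrX:100625815-100626114 on the plus strand, Bub3 chr7:131560120-131560419 on the plus strand and Ccnb1 chr13:100786437-100786736 on the minus strand.
Cdk1: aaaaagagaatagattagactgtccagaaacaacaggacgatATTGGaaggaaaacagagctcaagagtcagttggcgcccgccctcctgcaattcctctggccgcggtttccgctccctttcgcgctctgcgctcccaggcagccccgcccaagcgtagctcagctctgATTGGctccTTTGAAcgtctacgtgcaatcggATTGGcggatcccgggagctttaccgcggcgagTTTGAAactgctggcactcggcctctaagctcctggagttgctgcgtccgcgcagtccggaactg
Ncapd2: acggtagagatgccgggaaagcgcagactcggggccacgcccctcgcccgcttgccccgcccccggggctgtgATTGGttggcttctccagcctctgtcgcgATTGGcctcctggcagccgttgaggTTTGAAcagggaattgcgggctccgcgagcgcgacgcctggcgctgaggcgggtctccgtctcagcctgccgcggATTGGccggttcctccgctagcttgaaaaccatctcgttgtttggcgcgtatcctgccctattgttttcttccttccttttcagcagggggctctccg
Ect2: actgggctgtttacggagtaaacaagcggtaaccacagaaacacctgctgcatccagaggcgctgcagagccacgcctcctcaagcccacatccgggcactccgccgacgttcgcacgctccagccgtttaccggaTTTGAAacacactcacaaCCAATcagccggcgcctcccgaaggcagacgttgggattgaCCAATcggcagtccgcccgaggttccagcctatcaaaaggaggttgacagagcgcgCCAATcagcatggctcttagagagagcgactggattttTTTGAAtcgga
Kif4: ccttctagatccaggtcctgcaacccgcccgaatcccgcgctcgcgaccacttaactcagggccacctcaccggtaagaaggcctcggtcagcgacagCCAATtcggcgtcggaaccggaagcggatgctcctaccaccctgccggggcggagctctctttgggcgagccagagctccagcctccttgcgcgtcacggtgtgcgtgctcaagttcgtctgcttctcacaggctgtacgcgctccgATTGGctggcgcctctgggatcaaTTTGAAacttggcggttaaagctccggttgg
Bub3: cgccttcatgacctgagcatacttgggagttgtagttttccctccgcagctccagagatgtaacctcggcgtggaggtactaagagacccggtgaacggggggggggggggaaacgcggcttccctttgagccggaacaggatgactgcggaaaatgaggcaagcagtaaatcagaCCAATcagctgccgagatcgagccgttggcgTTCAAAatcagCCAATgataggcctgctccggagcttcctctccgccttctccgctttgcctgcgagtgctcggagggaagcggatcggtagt
Ccnb1: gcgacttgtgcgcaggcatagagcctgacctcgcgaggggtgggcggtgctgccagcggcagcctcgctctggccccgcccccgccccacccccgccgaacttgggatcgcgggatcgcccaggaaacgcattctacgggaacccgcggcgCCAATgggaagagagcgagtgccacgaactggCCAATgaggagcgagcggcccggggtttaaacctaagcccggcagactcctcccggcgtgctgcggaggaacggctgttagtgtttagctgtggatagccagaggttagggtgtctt

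The Cdk1 window holds CHR letters at 2 places and CCAAT letters, read as ATTGG, at 3. The Ccnb1 window holds CCAAT letters at 2 places and no CHR letters, and the Bub3 window, of the only member above all WT libraries in C, holds both kinds. Across the 2 neighbouring lists, CHR letters were in 47.8% of 92 windows of other mitosis genes and in 8 of 40 windows of DNA replication genes. E2F letters were in 15.2% and 42.5% of the same windows. The members thus had the highest share of CHR windows among these 3 lists, and the replication genes the highest share of E2F windows; no test was made of these shares.

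With all 6 libraries no member passed the edgeR quasi-likelihood test at an adjusted p of 0.05, in either direction, while 1.37% of all genes tested were called higher and 2.14% lower. The lowest adjusted p among the members was 0.127, for Cdk1, and 12 of 50, all higher, had an unadjusted edgeR p under 0.05. Among all genes tested, 21.5% had such a p in either direction, and 11.8% had it and were higher. The log2 differences were above 0 for all 50 (Cdc25b, at 0.02, turned below 0 with RLE or upper-quartile scaling), with a median of 1.304 against 0.05 over all genes tested, and standard errors from 0.19 to 0.86. These counts turned on DNAJ-PKAc C. Without it, 49 members rose and none fell (14.3% and 11.0% of all genes), with log2 differences from 0.79 to 2.66, adjusted p at most 0.0480, and a median standard error of 0.17 against 0.69 before. The exception was Cdc25b, at 0.36 (edgeR adjusted p = 0.123). Without both WT B and DNAJ-PKAc C all 50 rose, against 23.9% of all genes. With other tools the counts differed. DESeq2 with all libraries called Cdk1, Bub1b and Kif20a (adjusted p 0.00740, 0.0213 and 0.0400) against 3.17% of genes called higher, and limma-voom with library quality weights called 48 members against 25.2%. Only 1 member, Bub3, lay above all WT libraries in all 3 DNAJ-PKAc libraries, against 15.8% of all genes tested.

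**Figure D2:**
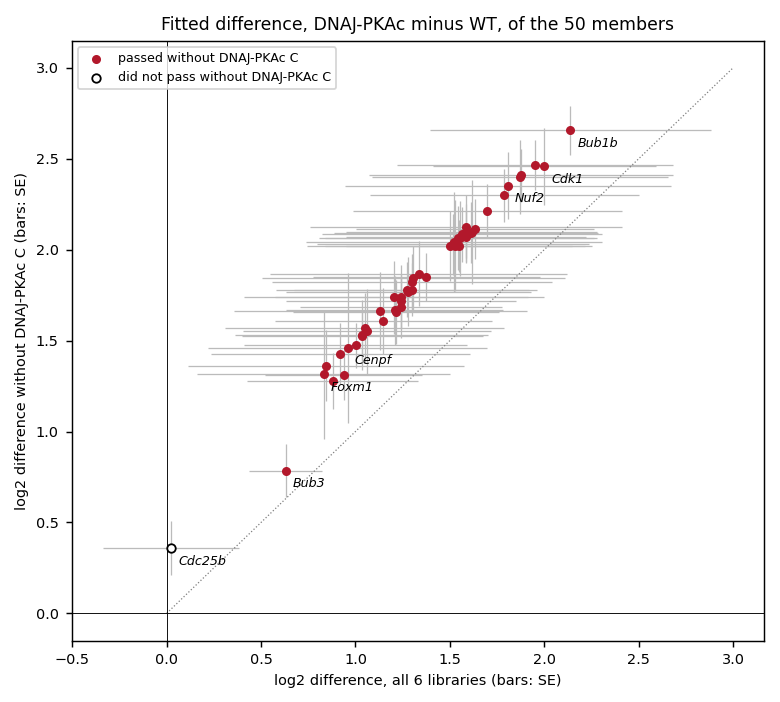
Each point is a member, with its edgeR log2 difference (DNAJ-PKAc minus WT) from all 6 libraries on the x axis and without DNAJ-PKAc C on the y axis, bars being standard errors and the dotted line equality. All 50 points lie above the line, the x bars are wider than the y bars, and the open point, Cdc25b, is the 1 member that did not pass without C.

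Among the mitotic kinases and phosphatases, Cdk1, the kinase that drives entry into mitosis, read 57.5, 39.2 and 61.8 CPM across WT libraries (mean 52.9 ± 12.01, SD, n = 3) against 275, 306 and 54.0 across DNAJ-PKAc libraries (mean 212 ± 137). A and B were far above WT, and C lay inside the WT range, which was seen for no other member. Its log2 difference was 2.00 ± 0.59 (SE; edgeR adjusted p = 0.127) with all libraries and 2.46 ± 0.21 (adjusted p = 0.000863) without C. Plk1, the Polo-like kinase that matures centrosomes, read 4.49, 8.99 and 5.63 CPM across WT libraries against 28.3, 26.1 and 4.14 across DNAJ-PKAc libraries, so its groups separated in A and B, and C was just under the lowest WT value. Cdc25b, a phosphatase that activates CDK1, read 54.5, 67.8 and 65.1 CPM across WT libraries against 83.4, 76.4 and 30.2 across DNAJ-PKAc libraries. Its log2 difference was 0.02 ± 0.36 (edgeR adjusted p = 0.975). It had the smallest fold of A and B over WT of any member, 1.28 on mean CPM, against 3.35 for its relative Cdc25c. The kinases Aurka, Aurkb, Nek2 and Plk4 were 2.48-fold to 3.60-fold above WT in A and B, and at 0.778 (Plk4) to 0.311 (Aurkb) of the WT mean in C.

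**Figure D3:**
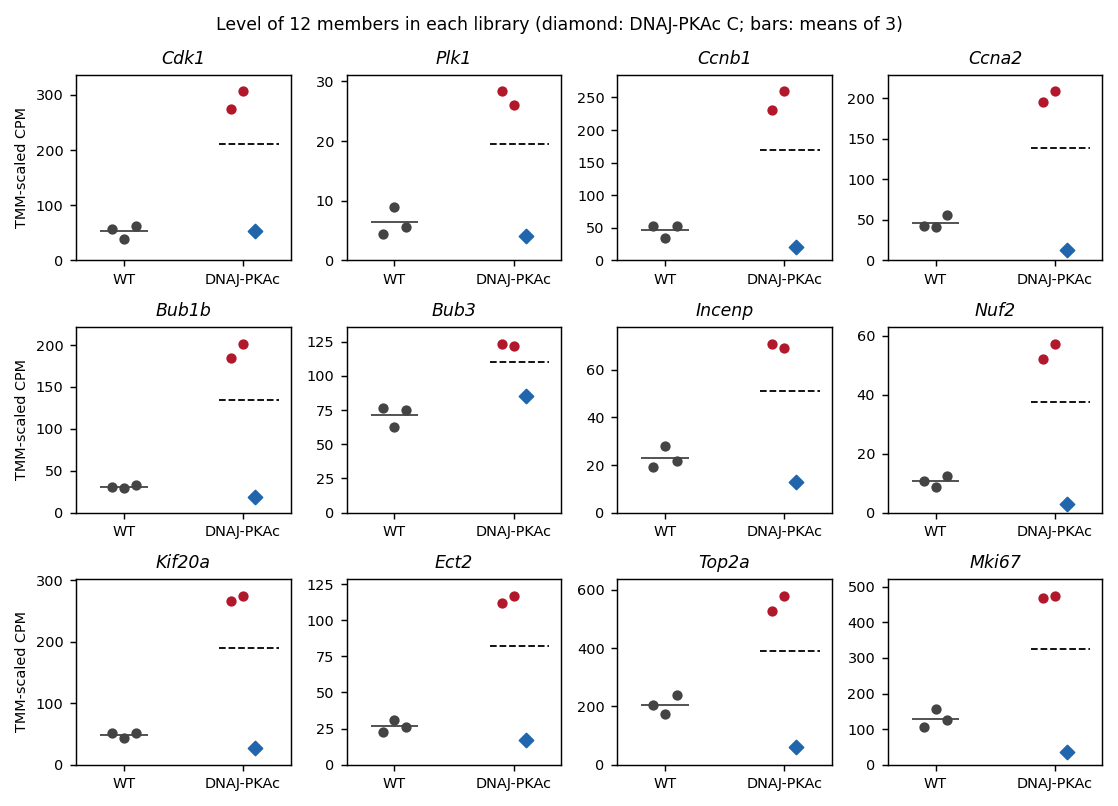
TMM-scaled CPM (linear axes from 0) of 12 members in WT libraries (grey), DNAJ-PKAc A and B (red) and DNAJ-PKAc C (blue diamond), with a bar at each mean of 3. A and B sit above all WT points in every panel, and C sits below them in all but those of Cdk1 and Bub3.

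The mitotic cyclins had the lowest role median in C, -1.80 on the log2 scale relative to WT, against 2.09 and 2.18 in A and B. Ccnb1, the main partner of CDK1 in mitosis, read 52.1, 35.01 and 52.2 CPM across WT libraries against 230, 259 and 20.5 across DNAJ-PKAc libraries. Ccna2, which acts from S phase into early mitosis, read 41.9, 41.3 and 55.6 CPM across WT libraries against 195, 208 and 13.0 across DNAJ-PKAc libraries. Ccna2 in C was at 0.282 of the WT mean, and the same library that held Cdk1 within the WT range held its cyclins well below it. Ccnb2 was 2.97-fold above WT in A and B and at 0.266 of WT in C. All 3 cyclins passed the test without C, at log2 differences of 1.57 to 2.399.

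The 10 genes of the spindle checkpoint and anaphase had medians of 2.00, 2.05 and -1.06 in A, B and C. Bub1b, which encodes the checkpoint protein BUBR1, read 30.5, 29.1 and 32.5 CPM across WT libraries against 185, 202 and 18.5 across DNAJ-PKAc libraries, and its fold of A and B over WT, 6.30, was the largest of the members. Bub3, which carries BUB1 and BUBR1 to kinetochores, read 76.3, 62.3 and 75.1 CPM across WT libraries against 124, 122 and 85.5 across DNAJ-PKAc libraries. Its log2 difference of 0.63 ± 0.19 had the smallest standard error of the members and an adjusted p of 0.135 (edgeR), and was 0.79 ± 0.14 (adjusted p = 0.0102) without C. Its fold of A and B over WT was 1.72, against 5.32 for the kinase Bub1, and it was the only member above all WT libraries in C. Ttk, the kinase MPS1 that starts checkpoint signalling, was at 0.232 of the WT mean in C. Cdc20 and Ube2c, a coactivator and an E2 enzyme of the anaphase-promoting complex, were 4.63-fold and 4.17-fold above WT in A and B, Mad2l1 was 4.20-fold, and the cohesin protector Sgol1 was 4.07-fold. Pttg1 (securin) and Espl1 (separase, the protease securin restrains) were 3.18-fold and 2.92-fold.

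In the chromosomal passenger complex, which corrects faulty attachments with Aurora B, Cdca8 (borealin) read 6.90, 7.59 and 8.06 CPM across WT libraries against 25.1, 22.2 and 4.87 across DNAJ-PKAc libraries. Incenp, its scaffold, read 19.2, 28.0 and 21.9 CPM across WT libraries against 71.1, 69.0 and 12.8 across DNAJ-PKAc libraries. Birc5 (survivin) was 3.59-fold above WT in A and B and at 0.238 of WT in C, so the subunits had similar folds in A and B and spread more widely in C.

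The 7 genes of the centromere and kinetochore had medians of 1.596, 1.91 and -1.43 in A, B and C. Spc25 and Nuf2 belong to the NDC80 complex, which holds microtubules at the kinetochore. Spc25 read 10.8, 6.19 and 10.5 CPM across WT libraries against 36.4, 38.3 and 4.75 across DNAJ-PKAc libraries, and Nuf2 read 10.8, 8.75 and 12.5 CPM across WT libraries against 52.1, 57.3 and 2.92 across DNAJ-PKAc libraries. Nuf2 had the widest gap between A and B and C of the members, 18.7-fold. The folds of A and B over WT within this complex were 2.57 for Ndc80, 5.11 for Nuf2, 4.14 for Spc24 and 4.07 for Spc25. Spc24 was the lowest member in every library in counts, with 11 counts in DNAJ-PKAc C (95% exact Poisson interval 5.49 to 19.7, counting error only). Cenpe, the kinesin motor of the kinetochore, read 40.0, 58.9 and 41.2 CPM across WT libraries against 133, 137 and 16.6 across DNAJ-PKAc libraries. Cenpa, the centromeric histone H3 variant, was 3.41-fold above WT in A and B. Cenpf, a large kinetochore protein, was 2.74-fold above WT, and its WT values of 24.9, 62.4 and 26.3 CPM were far apart, WT B being the high one. Its standard error without C, 0.41, was the largest of the members.

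The 7 kinesins had medians of 2.00, 2.05 and -1.25. Kif20a, a motor of the central spindle, read 52.1, 43.9 and 50.9 CPM across WT libraries against 266, 275 and 26.9 across DNAJ-PKAc libraries, and Kif4, the chromosome-bound motor, read 14.1, 15.8 and 16.9 CPM across WT libraries against 74.9, 78.5 and 8.16 across DNAJ-PKAc libraries. Both were clear of WT in A and B and below it in C. Kif11 (Eg5, which pushes spindle poles apart), Kif2c, Kif15, Kif20b and Kif23 were 2.88-fold to 4.24-fold above WT in A and B and at 0.4996 of WT or less in C, the lowest being Kif15 at 0.246. Kif20a overlaps exons of Cdc23 on the opposite strand for 29.3% of its exonic length and Kif4 overlaps Pdzd11 for 15.1%. No source used here says whether counting used strand, so reads of such pairs could be shared. Of the 50 members, 12 shared exonic bases with a gene on the opposite strand and 3 (Top2a, Ncapd2 and Foxm1) with a gene on the same strand. The share was over 10% for 7, all of them opposite-strand pairs.

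Anln (anillin) and Ect2, which form and position the contractile ring, represent spindle assembly and cytokinesis. Anln read 96.1, 98.8 and 72.9 CPM across WT libraries against 279, 294 and 59.8 across DNAJ-PKAc libraries. Ect2 read 22.7, 31.3 and 26.4 CPM across WT libraries against 112, 117 and 17.4 across DNAJ-PKAc libraries, a larger fold in A and B than Anln, 4.27 against 3.21. Tpx2, which nucleates spindle microtubules, and Prc1, which bundles them in the midzone, were 2.78-fold and 3.43-fold above WT in A and B. The medians of this role were 1.70, 1.78 and -0.87.

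Among chromosome structure genes, Top2a, the topoisomerase that untangles sister chromatids, read 204, 175 and 239 CPM across WT libraries against 527, 579 and 62.5 across DNAJ-PKAc libraries. Ncapd2, a condensin I subunit, read 31.9, 39.0 and 34.3 CPM across WT libraries against 148, 136 and 23.4 across DNAJ-PKAc libraries, and Smc2, a condensin core subunit, read 23.999, 26.5 and 32.7 CPM across WT libraries against 116, 124 and 17.8 across DNAJ-PKAc libraries. Condensin subunits differed in size of change: the fold of A and B over WT was 4.33 for Smc2, 4.05 for Ncapd2, 4.18 for Ncapg and 4.26 for Ncaph, but 2.43 for Smc4. Per kilobase of transcript, Smc4 was 9.31 times as abundant as its partner Smc2 in WT and 5.22 times in A and B. This difference within condensin was not tested.

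The transcription factor Foxm1 and the proliferation marker Mki67 close the list. Foxm1, which activates many of the other members, read 17.3, 34.7 and 15.01 CPM across WT libraries against 57.4, 53.4 and 8.29 across DNAJ-PKAc libraries, and was 2.48-fold above WT in A and B, less than the members' median of 3.56. Mki67 read 107, 155 and 126 CPM across WT libraries against 468, 474 and 36.2 across DNAJ-PKAc libraries, 3.64-fold above WT. Over all 50 members the fold of A and B over WT ran from 1.28 (Cdc25b) to 6.30 (Bub1b), 48 of them at least 2-fold, and C ranged from 0.232 (Ndc80) to 1.201 (Bub3) of the WT mean with a median of 0.452. C was at 0.5 of WT or less for 31 members.

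Levels per kilobase of the longest coding transcript in the GENCODE mouse annotation let members be set beside each other. The WT mean ran from 1.43 CPM per kb for Mad2l1 to 47.8 for Smc4, with a median of 6.46. The Mad2l1 value divides by a transcript of 7.557 kb, which is longer than the span of its RefSeq gene. Its place as the lowest depends on that length, and which transcript was expressed was not tested. Only 10 members reached 15 CPM per kb in WT: the cyclins Ccna2, Ccnb1 and Ccnb2, Cdc20, Cdc25b, Bub3, Tpx2, Anln, Top2a (39.4) and Smc4. In A and B the median was 25.03 CPM per kb, and in C it was 3.20.

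Genes of the same process outside the members had medians of the same sign in each DNAJ-PKAc library, nearer to 0. Of 95 other mitosis genes tested, none passed with all libraries (edgeR; 19 had an unadjusted p under 0.05, where 21.5% of all genes tested did), the medians relative to WT were 1.29, 1.35 and -0.64 in A, B and C, and 59 (62.1%) had A and B above and C below all WT libraries. Without C, 69 rose and 2, Anapc7 and Mad1l1, fell, where 14.3% of all genes rose and 11.0% fell. Anapc7, a subunit of the anaphase-promoting complex, read 53.8, 59.98 and 62.6 CPM across WT libraries against 34.4, 34.7 and 40.6 across DNAJ-PKAc libraries, lower in all 3, with a log2 difference of -0.68 ± 0.15 (adjusted p = 0.0635). Cks1b, a subunit that binds cyclin-dependent kinases, read 33.1, 29.3 and 36.8 CPM across WT libraries against 88.9, 91.0 and 38.8 across DNAJ-PKAc libraries. It is 1 of 7 of these genes (7.37%) that lay above all WT libraries in all 3 DNAJ-PKAc libraries, against 15.8% of all genes tested.

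Of 44 DNA replication genes, none passed with all libraries, and 9 had an unadjusted edgeR p under 0.05, also beside 21.5% of all genes tested. Without C, 39 rose and none fell, where 14.3% of all genes rose and 11.0% fell. The medians were 1.47, 1.46 and -0.79, with 32 (72.7%) in the pattern of A and B above and C below. Ccne1, a cyclin of S phase entry, read 7.78, 6.89 and 8.17 CPM across WT libraries against 25.6, 28.9 and 9.63 across DNAJ-PKAc libraries. It is 1 of 2 genes of this list (4.5%) above all WT libraries in all 3 DNAJ-PKAc libraries, against 15.8% of all genes tested. Ccne2, in the same list, read 12.8, 9.92 and 11.9 CPM across WT libraries against 29.7, 34.5 and 2.19 across DNAJ-PKAc libraries. Like the mitotic cyclins, Ccne2 was below all WT libraries in C. Chaf1b, a chromatin assembly factor subunit, read 5.37, 4.32 and 6.29 CPM across WT libraries against 26.5, 28.0 and 5.36 across DNAJ-PKAc libraries. The 9 genes of cohesin, which holds sister chromatids together, and of its regulators had medians nearer to WT, at 0.33, 0.44 and -0.05. None was in the pattern of A and B above and C below, against 7.88% of all genes tested. None was called with all libraries, where 1.37% of all genes tested were called higher and 2.14% lower. Without C, 2 were called higher, where 14.3% of all genes were. WT B lay above the WT mean for all 9, by a median log2 of 0.16. Without both WT B and DNAJ-PKAc C, 5 were called higher, where 23.9% of all genes were. In that fit 1 was called lower, where 2691 of 10953 genes were. No difference between these lists and the members was tested, and the lists share their libraries.

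**Figure D4:**
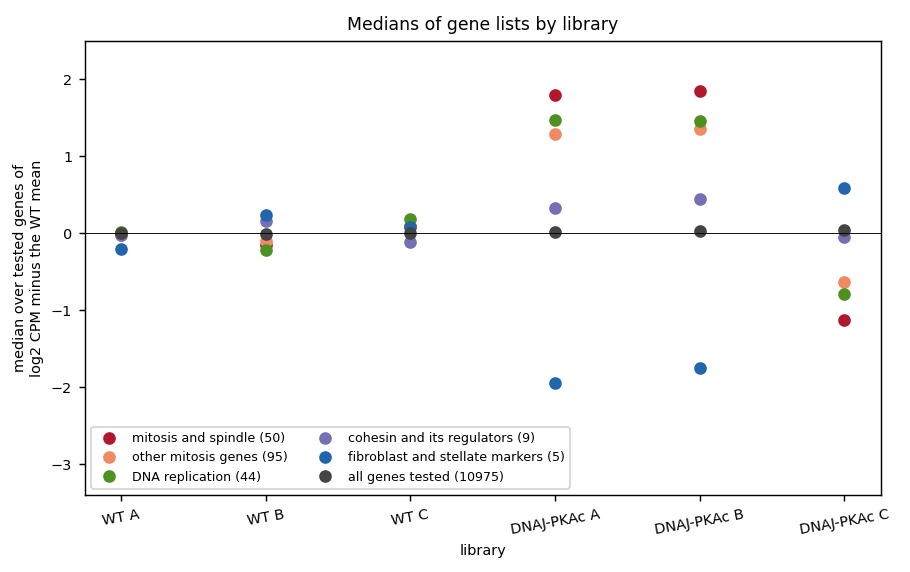
Points are medians, over the tested genes of each list, of log2 CPM minus the WT mean (y axis) in each library (x axis); list sizes are in the legend. In A and B the members are highest, at 1.80 and 1.85, and in C they are lowest, at -1.12, with fibroblast and stellate markers below 0 in A and B and above 0 in C, and cohesin genes near 0 in C.

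Relative to WT, the summed level of fibroblast and stellate markers went the opposite way to the members in the DNAJ-PKAc libraries. Within WT the order was not reversed, since WT C was highest for both sums. This sum, led by Col1a2, was 11193, 13177 and 13581 CPM in WT, 4779 and 4472 in DNAJ-PKAc A and B, and 16664 in C, so A and B were below WT and C above it. Lrat was at 0 in every library. Taken singly, 2 of the 5 markers tested had A and B below and C above all WT libraries, against 5.98% of all genes tested. Col1a1 in C, at 461 CPM, lay inside its WT range of 195 to 516 CPM. Of the 5, none passed with all libraries, where 2.14% of all genes tested were called lower. Without C, 5 fell, where 11.0% of all genes did. Their part in the members' values was not tested.

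WT B read differently for long members. It lay above the mean of WT A and C for 15 of 50 members, against 48.9% of all genes tested, and its ratio to that mean ran from 0.569 for Spc24 to 2.44 for Cenpf. For the 8 members with a transcript of at least 5 kb, 5 lay above and the median log2 difference was 0.31. Mad2l1 is among these 8 by its longest coding transcript, which is longer than its RefSeq gene span. For the 42 shorter members, 10 lay above and the median was -0.24. The Spearman correlation of this deviation with transcript length was 0.48 over the 50 members and 0.59 over 10279 genes, given as a description across genes of the same 3 libraries. Cenpf and Foxm1, the members with the widest WT spread on the log2 scale, had adjusted p-values without C of 0.0480 and 0.0429 (edgeR).

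**Figure D5:**
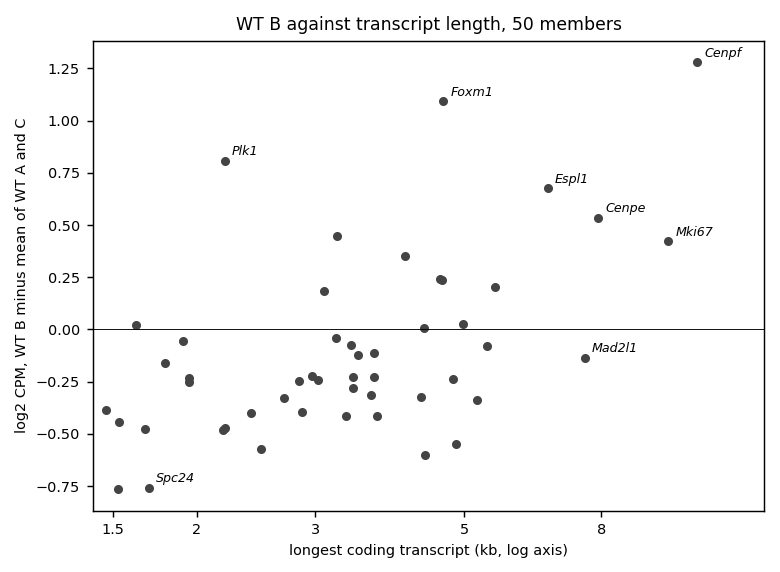
Each point is a member, with transcript length (kb, log x axis) and log2 CPM of WT B minus the mean of WT A and C (y axis). Members of at least 5 kb have a median of 0.31 and shorter ones a median of -0.24, and Cenpf is the highest point. Length is that of the longest coding transcript, which for Mad2l1 is longer than its RefSeq gene span.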

How the data were processed

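The authors deposited a table of expected counts per gene symbol, per the file headers, and its column totals differ, as raw estimates do. STAR 2.5.2b, RSEM 1.3.0 and mm10 are named without roles, per the submitters' processing notes; a stranded total RNA kit is named per the labels' protocols. No source used here gives the annotation, filters or strand setting. No member had a value that was not whole.

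Expected counts were rounded. filterByExpr (minimum count 10) set the genes tested, which were scaled by TMM and tested with edgeR 4.0.16 (quasi-likelihood, robust, two-sided; R 4.3.3), with Benjamini-Hochberg adjustment over 10975 genes and a threshold of 0.05. The standard error is the log2 difference divided by the square root of F. CPM are TMM-scaled, and log2 CPM use a prior count of 2. DESeq2 1.42.0 and limma 3.58.1 were alternatives, with other scalings, filters, a replicate block and libraries left out. On simulated counts for 10893 genes, edgeR called 80 of 100 genes given a 4-fold change and 24 of 100 given a 2-fold change. It called none with the wrong sign, and 15 genes given no change. The share called among genes that spread as the members do, with a median standard error of 0.69, was not tested. Cdk1, with a fitted fold of 4.00, was not called by edgeR with all libraries. Groups followed the labelled genotype. The members and lists were chosen with earlier results of these data known. Values in every library are given, per role, for the 2 members of smallest adjusted p, the member of highest mean CPM, and members whose libraries break the common pattern; genes named otherwise were chosen after their values were seen. Of the other mitosis and replication lists, the 2 genes of smallest adjusted p are named, and Ccne2 is set beside Ccne1.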

Additional observations from a re-analysis of the deposited data

How the results depend on the processing

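With RLE or upper-quartile scaling, no filter or a filter of 1 CPM in 3 libraries, no robust option, structural RNA left out, limma-voom or a threshold of 0.01, no member was called. DESeq2 called 3 members, 2 other mitosis genes higher and 2 lower, and 3 replication genes. Of all 10975 genes tested, it called 3.17% higher and 626 genes lower. Library quality weights called 48, 73 and 36 higher, and 2 other mitosis genes lower. With these weights 5076 of 10975 genes were called in either direction, and 25.2% were called higher. With WT B and DNAJ-PKAc C both left out, the calls were 50, 75 and 40 higher, and 3 other mitosis genes lower. That fit called 23.9% of all genes higher and, of 10953 genes also in the main fit, 2691 lower. RLE scaling called 1 other mitosis gene lower, where 415 of 10975 genes were called in either direction. Leaving out single libraries gave 0 to 49 members, 0 to 69 other mitosis genes and 0 to 39 replication genes higher, and 0 to 2 other mitosis genes lower. Every call in these ranges came from the fit that lacked DNAJ-PKAc C, which called 14.3% of all genes higher and 11.0% lower. The log2 difference of Cdc25b turned to -0.0161 with RLE factors, -0.0455 with upper-quartile factors, -0.0164 in DESeq2, -0.102 in limma-voom and -0.0936 with the replicate block, and ran from -0.22 to 0.36 with single libraries left out. With the replicate block, 0 members were called and the median log2 difference was 0.95. Libraries of the same letter had correlations of 0.21, -0.20 and 0.03 in their deviations from the group means. Libraries of different letters had -0.28 to 0.30. These deviations cancel within each group, so the correlations cannot settle pairing. The labels give no pairing, and the letters were not taken as pairs. The cause of the changes between settings was not tested.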
